A study of Homo sapiens with 17 samples.

Results

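The 10 genes described here are targets of the transcription factor NF-kB, made up of 4 chemokines (CXCL1, CXCL2, CXCL8 and CCL20) and 6 genes that feed back on the pathway or carry out its effects (NFKBIA, TNFAIP3, ICAM1, BIRC3, RELB and ZFP36). They were taken by Ensembl ID from a table of 19867 genes, and all 10 were present. All 10 also held enough counts to be tested in both experiments. SLAM-seq was used to count their new transcripts: cells take up thiouridine, and a read with T>C conversions is taken to come from RNA made after the thiouridine was added. The cells were SNU-761, a human liver carcinoma line labelled as wild type, and all treated libraries were collected at 4 h. In the first experiment the groups were DMSO, VT107 at 0.1 µM and VT107 at 2.15 µM, with 2 libraries each. VT107 is a small molecule inhibitor of the TEAD family, through which YAP and TAZ reach DNA. In the second experiment the groups were an isotype IgG1 at 5 µg/ml, intetumumab at 1.5 µg/ml and intetumumab at 5 µg/ml, with 3 libraries each. The antibody intetumumab, used as a biosimilar, binds integrins built on the ITGAV chain. Each experiment also had 1 library from cells that received no thiouridine. All results come from 1 cell line, and the labels do not say whether replicates came from separate cultures. P-values therefore reflect the spread between these libraries alone, which may be technical. Markers of liver cells were not checked, since the table used here pairs no gene names with Ensembl IDs beyond the 10 genes.

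NF-kB dimers are held in the cytoplasm by inhibitors such as the product of NFKBIA, and are released when inflammatory or stress signals activate the IκB kinase. They then bind κB sites and switch on chemokine genes within minutes to hours, together with genes that end the response. NFKBIA restores the inhibitor, TNFAIP3 encodes a ubiquitin-editing enzyme that shuts off the upstream signal, and ZFP36 encodes a protein that speeds the decay of chemokine and cytokine mRNAs. In liver tumours the chemokines of this set draw in neutrophils and lymphocytes. These early genes have short-lived mRNAs, and SLAM-seq counts their new RNA apart from what was made before labelling.

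By identifier and RefSeq position in GRCh38.p14, the chemokine genes are CXCL1 (ENSG00000163739, chr4:73869393-73871308), CXCL2 (ENSG00000081041, chr4:74097040-74099195), CXCL8 (ENSG00000169429, chr4:73740569-73743716) and CCL20 (ENSG00000115009, chr2:227813842-227817556). The inhibitors of the response are NFKBIA (ENSG00000100906, chr14:35401513-35404749), TNFAIP3 (ENSG00000118503, chr6:137866349-137883312) and ZFP36 (ENSG00000128016, chr19:39406847-39409407). The others are ICAM1 (ENSG00000090339, chr19:10271120-10286615), BIRC3 (ENSG00000023445, chr11:102317484-102339403) and RELB (ENSG00000104856, chr19:45001464-45038192).

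Sequence before the transcription start is shown for the 4 chemokines, whose estimates at VT107 2.15 µM differed in sign, and for NFKBIA, the member with the most counts. Each stretch is the 150 bases before the start in the RefSeq annotation of GRCh38.p14, 5′ to 3′ on the strand of the gene. Capitals mark matches to the κB consensus decamer or to GGAANTTCC, searched on both strands, which overlap each other where both occur.
CXCL1: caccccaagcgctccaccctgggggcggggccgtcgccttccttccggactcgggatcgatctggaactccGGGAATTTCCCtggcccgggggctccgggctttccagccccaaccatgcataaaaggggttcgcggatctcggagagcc
CXCL2: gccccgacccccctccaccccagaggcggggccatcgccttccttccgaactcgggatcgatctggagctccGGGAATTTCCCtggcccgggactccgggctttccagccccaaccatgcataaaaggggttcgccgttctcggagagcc
CXCL8: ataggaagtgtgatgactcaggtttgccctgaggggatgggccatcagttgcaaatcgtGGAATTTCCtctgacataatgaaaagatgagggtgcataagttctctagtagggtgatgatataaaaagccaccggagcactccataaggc
CCL20: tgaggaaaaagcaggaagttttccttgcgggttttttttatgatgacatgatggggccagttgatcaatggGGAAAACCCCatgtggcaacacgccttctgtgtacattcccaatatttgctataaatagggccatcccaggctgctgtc
NFKBIA: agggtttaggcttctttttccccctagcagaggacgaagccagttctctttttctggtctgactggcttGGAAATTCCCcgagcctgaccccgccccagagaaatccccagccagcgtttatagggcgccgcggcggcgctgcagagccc

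The stretches lie at chr4:73869243-73869392 (CXCL1, plus strand), chr4:74099196-74099345 (CXCL2, minus strand), chr4:73740419-73740568 (CXCL8, plus strand), chr2:227813692-227813841 (CCL20, plus strand) and chr14:35404750-35404899 (NFKBIA, minus strand). The promoter table held 9 of the 10 genes, RELB being the other, with 250 bases before and 50 after each start. For TNFAIP3 the 150 bases before the start used there lay at chr6:137867109-137867258, inside the gene position given above. Its matches are therefore set by that start and not by the first base of that position. In these windows GGAANTTCC occurred in 5 of the 9 genes (CXCL1, CXCL2, CXCL8, NFKBIA and ICAM1), against 0.965% of 35114 promoters. The κB consensus occurred in 6 of the 9 (CXCL1, CXCL2, CCL20, NFKBIA, TNFAIP3 and BIRC3), against 11.3% of all. In CXCL8 the match to GGAANTTCC lay at -91 to -83, with -1 as the base before the start. The heptamer TGANTCA, a site form of AP-1 factors, was found in 1 of the 9, at -137 to -131 of CXCL8, against 7.71% of all promoters. The hexamer GGAATG, a site form of TEAD factors, was found in 2 of the 9 (CCL20 at -45 to -40 and ZFP36 at -210 to -205), against 14% of all. These are matches of letters and do not show binding. The genes were chosen as targets of NF-kB, so their shares with GGAANTTCC or the κB consensus are no test of the set. CXCL1 and CXCL2, whose windows are alike, count as 2 genes in these shares. The CXCL1 and CXCL2 windows were identical in 222 of 308 aligned columns (72.1%), gaps included. That identity is of the promoters and does not measure how alike the transcripts are. These 2 genes are close copies of each other, and how reads that fit both were handled is not given in the sources used here. Their separate counts are therefore uncertain.

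Labelled libraries held 435343 to 1778876 counts, the deepest being VT107 2.15 µM replicate 1 and the shallowest intetumumab 5 µg/ml replicate 1. The 10 genes together took 0.72% to 0.888% of the counts in VT107-treated libraries and 0.778% and 0.686% in the DMSO libraries. They took 0.292% to 0.33% in intetumumab-treated libraries and 0.307% to 0.313% in the isotype libraries. Levels below are counts per 1000000 after TMM scaling (CPM), set within each experiment. The plot of levels by library shows all values.

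**Figure D1:**
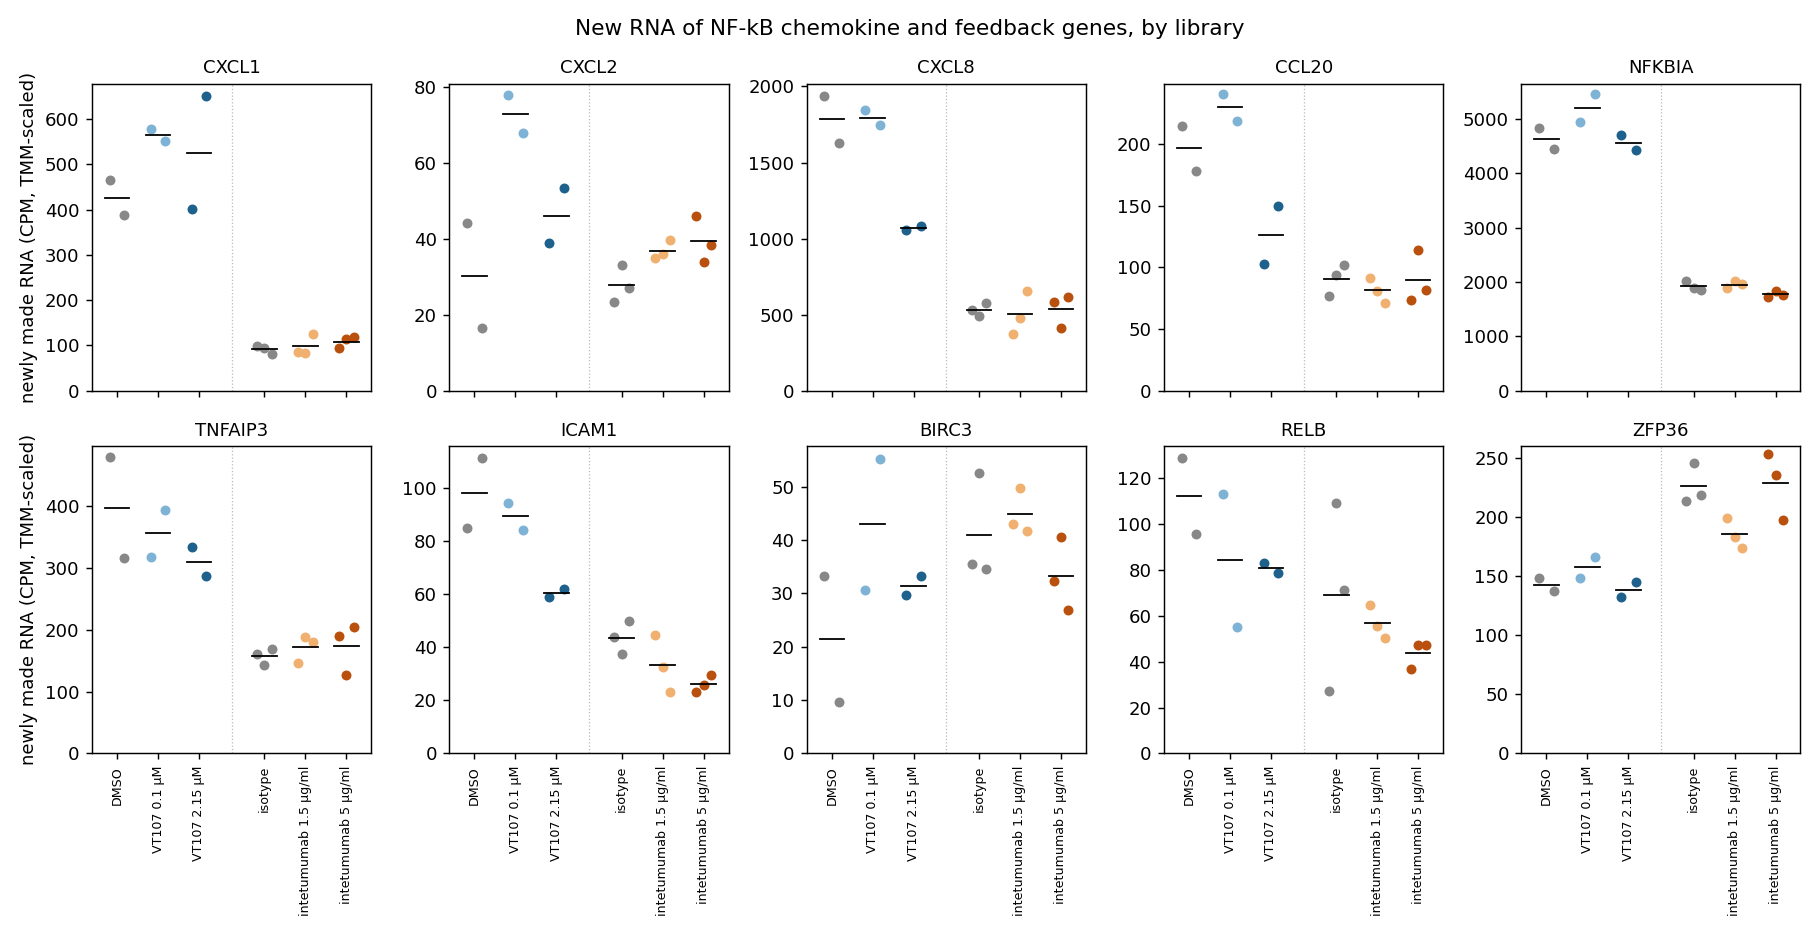
Newly made RNA of the 10 genes in each labelled library, in TMM-scaled CPM on axes that start at 0, with 1 point per library and a bar at the group mean; the dotted line parts the 2 experiments, which were scaled apart. The VT107 2.15 µM libraries of CXCL8 sit at 1057 and 1081 CPM, below both DMSO libraries.

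No member passed the threshold of an adjusted p of 0.05 in any of the 7 comparisons made with edgeR's quasi-likelihood test. For VT107 at 2.15 µM against DMSO, 0 members were called, where 0.109% of all 10083 tested genes were called lower and 0% higher. At an unadjusted p of 0.05, 2 members were lower and 0 higher, against 6.3% and 5.28% of all genes. DESeq2 gave 2 members at that level and called 1, where it called 2.43% of all genes. It gave BIRC3 no adjusted p, so BIRC3 could not be called. The share of all genes at an unadjusted p of 0.05 is not given here for DESeq2 in any comparison. The members' median log2 fold change was -0.20, and that of all tested genes 0.03, with 7 members lower and 3 higher. Scaling to total counts moved the median of all genes by 0.16 and split the members into 5 lower and 5 higher, with NFKBIA at 0.13 and ZFP36 at 0.11. All libraries at 2.15 µM lay below both DMSO libraries for 4 members (CXCL8, CCL20, ICAM1 and RELB), against 20.6% of all genes, and above them for 0, against 24.1%.

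CXCL8 encodes interleukin 8, the main human attractant of neutrophils. It had 1940.4 and 1627 CPM in DMSO, 1845 and 1747 CPM at 0.1 µM, and 1057 and 1081 CPM at 2.15 µM. Both libraries at 2.15 µM lay far below the other 4, and the pair differed little from each other, while the 0.1 µM libraries fell inside the range of DMSO. At 2.15 µM against DMSO the log2 fold change was -0.74 (SE 0.15, 95% interval -1.09 to -0.39, unadjusted p = 0.0012, adjusted p = 0.127 by edgeR), a level 0.6 times that of DMSO. Against 0.1 µM it was -0.75 (SE 0.15, adjusted p = 0.886). At 0.1 µM against DMSO it was 0.01 (SE 0.15, 95% interval -0.34 to 0.36). In such bulk libraries, fewer cells making a transcript and less of it per cell cannot be told apart. DESeq2, run on the same libraries, called CXCL8 at 2.15 µM both against DMSO (log2 fold change -0.76, adjusted p = 0.000525) and against 0.1 µM (-0.76, adjusted p = 0.0285), and was alone with the unfiltered edgeR fit in calling any member. It called 2.43% and 0.0694% of all genes in these comparisons. Without the filter on low counts, edgeR called CXCL8 against DMSO as well (log2 fold change -0.72, adjusted p = 0.0408), among 199 genes in all where the filtered fit called 11. Over the 13 alternatives the value against DMSO stayed between -0.86 and -0.58, and its adjusted p ranged between 0.000525 and 0.718.

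CCL20 encodes the chemokine that attracts CCR6-bearing lymphocytes and dendritic cells. It had 215 and 178 CPM in DMSO, 240.3 and 219 CPM at 0.1 µM, and 103 and 149.6 CPM at 2.15 µM. The 2.15 µM libraries again lay lowest, with replicate 1 well under replicate 2, and the 0.1 µM libraries lay highest. At 2.15 µM against DMSO the log2 fold change was -0.64 (SE 0.27, unadjusted p = 0.0452, adjusted p = 0.423), and against 0.1 µM it was -0.87 (SE 0.27, unadjusted p = 0.0124, adjusted p = 0.905). All 15 labelled counts of CCL20 were multiples of 2, and 1456 of 9757 genes examined had counts with a common divisor above 1. If reads were counted more than once, the intervals on counts of CCL20 are too narrow, which was not tested.

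CXCL1 and CXCL2 encode neutrophil attractants that share the receptor CXCR2 with CXCL8, and both had positive estimates at 2.15 µM against DMSO. CXCL1 had 465 and 388 CPM in DMSO, 578 and 553 CPM at 0.1 µM, and 401 and 650.1 CPM at 2.15 µM. The 0.1 µM libraries lay above DMSO, while those at 2.15 µM fell apart, one inside the DMSO range and the other the highest of all. The log2 fold change against DMSO was 0.30 at 2.15 µM (SE 0.26, 95% interval -0.28 to 0.89, adjusted p = 0.72) and 0.41 at 0.1 µM (SE 0.26, adjusted p = 0.576). Without replicate 2 of 2.15 µM the CXCL1 value at that dose was -0.085. CXCL2 had 44.0 and 16.4 CPM in DMSO, from 41 and 17 counts, then 77.7 and 67.8 CPM at 0.1 µM and 39.0 and 53.2 CPM at 2.15 µM. Both 0.1 µM libraries lay above all others. Its log2 fold change of 1.28 at 0.1 µM (SE 0.49, 95% interval 0.15 to 2.41, unadjusted p = 0.0312, adjusted p = 0.371) had the largest size among the 10 genes in the comparisons with a control. Without DMSO replicate 2 the value was 0.72, and without DMSO replicate 1 it was 2.15.

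ICAM1 encodes an adhesion receptor that binds leukocyte integrins. It had 84.8 and 111 CPM in DMSO, 94.2 and 84.2 CPM at 0.1 µM, and 59.0 and 61.7 CPM at 2.15 µM. The 2.15 µM libraries lay below the other 4, from 109 and 80 counts. The log2 fold change at 2.15 µM was -0.70 (SE 0.31, 95% interval -1.41 to 0.01, unadjusted p = 0.0524, adjusted p = 0.439).

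NFKBIA, with 4199 to 8681 counts per library in the VT107 experiment, gave the narrowest intervals. It had 4825 and 4438 CPM in DMSO, 4946 and 5461 CPM at 0.1 µM, and 4697 and 4423 CPM at 2.15 µM. The 2.15 µM libraries overlapped those in DMSO. The interval at 2.15 µM ran between 0.817- and 1.19-fold of DMSO (log2 fold change -0.02, SE 0.12, adjusted p = 0.961), so a change of NFKBIA as large as the estimate for CXCL8 lies outside it. At 0.1 µM both libraries lay above DMSO (log2 fold change 0.17, SE 0.12, adjusted p = 0.626).

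TNFAIP3 had 479 and 315 CPM in DMSO, 318 and 393 CPM at 0.1 µM, and 333 and 287 CPM at 2.15 µM. The 3 groups overlapped (log2 fold change -0.35 at 2.15 µM, SE 0.26, adjusted p = 0.665). Without DMSO replicate 1 the value was -0.018, and without DMSO replicate 2 it was -0.63. ZFP36 had 148 and 137 CPM in DMSO, 148 and 166 CPM at 0.1 µM, and 132 and 145 CPM at 2.15 µM. The libraries at 2.15 µM overlapped those in DMSO, and the log2 fold change was -0.04 (SE 0.25, adjusted p = 0.965). RELB, a subunit of the non-canonical NF-kB dimer, had 129 and 95.7 CPM in DMSO, 113 and 55.3 CPM at 0.1 µM, and 82.8 and 78.7 CPM at 2.15 µM. The lowest library was one at 0.1 µM (log2 fold change -0.47 at 2.15 µM, SE 0.38, adjusted p = 0.705). BIRC3, an inhibitor of apoptosis that acts in TNF receptor complexes, had the fewest counts in this experiment, 10 to 55 per library. Its levels were 33.3 and 9.66 CPM in DMSO, 30.6 and 55.3 CPM at 0.1 µM, and 29.8 and 33.2 CPM at 2.15 µM. DMSO replicate 2 stood below all others, and the 95% interval at 2.15 µM spanned 0.571- to 3.81-fold (log2 fold change 0.56, SE 0.60, adjusted p = 0.79).

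**Figure D2:**
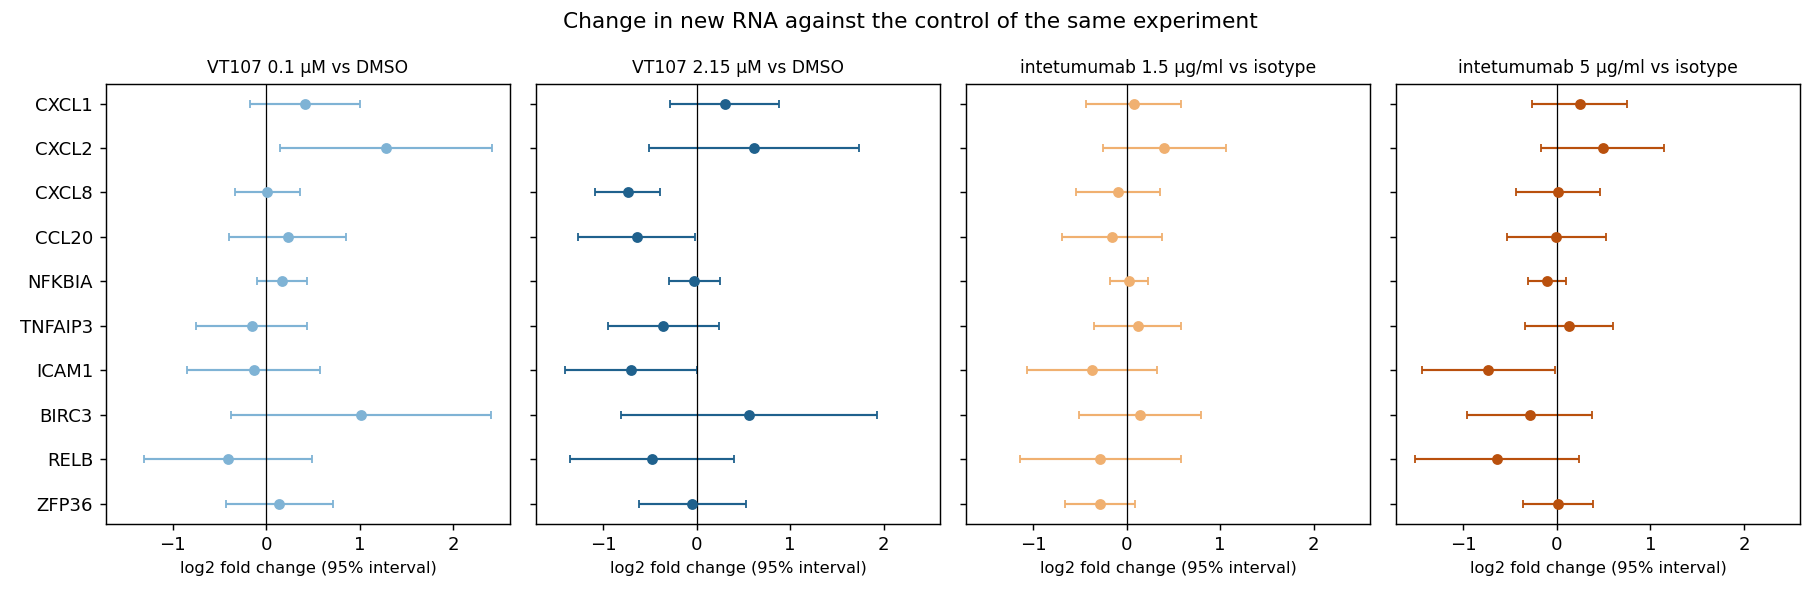
Log2 fold changes of the 10 genes against the control of the same experiment, with points at the estimate of edgeR's fit and bars for its 95% interval, in panels for VT107 at 0.1 and 2.15 µM against DMSO and intetumumab at 1.5 and 5 µg/ml against the isotype. CXCL8 at VT107 2.15 µM lies at -0.74, and the bars of NFKBIA are short while those of BIRC3 and RELB are wide.

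For VT107 at 0.1 µM against DMSO, edgeR called 0 members, as it called 0% of all 10083 genes in either direction. At an unadjusted p of 0.05, 1 member (CXCL2) was higher and 0 were lower, against 5.98% and 6.11% of all genes. DESeq2 gave 1 member at that level and called 0, where it called 1.81% of all genes and gave BIRC3 no adjusted p. Both 0.1 µM libraries lay above both DMSO libraries for 5 members (CXCL1, CXCL2, CCL20, NFKBIA and ZFP36), against 20.4% of all genes, and below them for 0, against 19.3%. The members' median log2 fold change was 0.15, against 0.01 for all genes. The same DMSO libraries serve both doses.

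Set directly against 0.1 µM, all 10 members had lower estimates at 2.15 µM, with a median log2 fold change of -0.32, while the median of all genes was -0.01 and 49.2% of them were higher. EdgeR called 0 members and 0% of all genes in either direction. At an unadjusted p of 0.05, 2 members were lower (CXCL8 and CCL20) and 0 higher, against 2.76% and 2.54% of all genes. DESeq2 gave 2 members at that level and called 1, where it called 0.0694% of all genes. Both libraries at 2.15 µM lay below both at 0.1 µM for 6 members (CXCL2, CXCL8, CCL20, NFKBIA, ICAM1 and ZFP36), against 19% of all genes, and above them for 0, against 20.1%. For 3 of the other members the sign turned without 1 library: RELB was at 0.56 without replicate 1 of 0.1 µM, BIRC3 at 0.04 without replicate 2 of 0.1 µM, and CXCL1 at 0.21 without replicate 1 of 2.15 µM.

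Counts of 2 genes in the same library can be set against each other without any scaling between libraries, and this ratio was added after the values had been seen. It is described here and was not tested. Per 100 counts of NFKBIA, CXCL8 had 40.2 and 36.7 counts in DMSO, 37.3 and 32.0 at 0.1 µM, and 22.5 and 24.4 at 2.15 µM. The exact binomial intervals of the 2.15 µM libraries (21.4 to 23.6 and 23.0 to 25.9) lay below those of the other 4 libraries, the lowest of which reached down to 30.1. CCL20 had 4.45 and 4.01 counts per 100 of NFKBIA in DMSO, 4.86 and 4.00 at 0.1 µM, and 2.19 and 3.38 at 2.15 µM. Only replicate 1 at 2.15 µM had an interval (1.89 to 2.53) apart from both DMSO libraries. CXCL1 had 9.63 and 8.73 in DMSO, 11.7 and 10.1 at 0.1 µM, and 8.54 and 14.7 at 2.15 µM. The interval of its 2.15 µM replicate 2 (13.7 to 15.8) lay above those of all other libraries in that experiment. ICAM1 had 1.76 and 2.50 in DMSO, 1.91 and 1.54 at 0.1 µM, and 1.26 and 1.39 at 2.15 µM. Ratios of the other members are not described here. Intervals on counts hold counting error alone. Whether amplified copies of a molecule were counted as separate reads is not given here, and if they were, these intervals are too narrow.

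**Figure D3:**
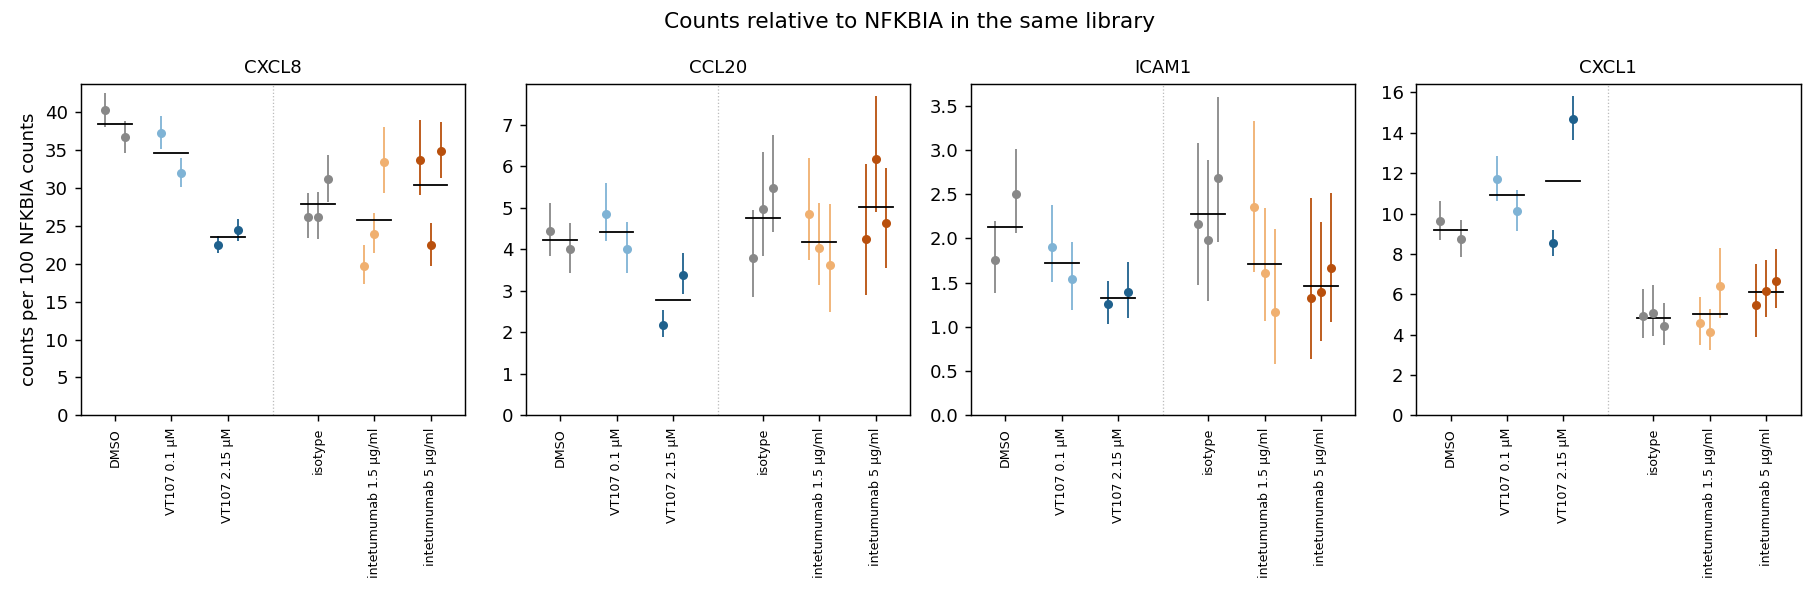
Counts of CXCL8, CCL20, ICAM1 and CXCL1 per 100 NFKBIA counts of the same library, with 1 point per library, exact binomial 95% intervals and a bar at the group mean, on axes that start at 0. CXCL8 stands at 22.5 and 24.4 in the VT107 2.15 µM libraries, under every other library of that experiment, and shows no such step in the intetumumab experiment.

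For intetumumab at 5 µg/ml against the isotype, edgeR called 0 members, where 0.0222% of 9024 genes were called higher and 0.0665% lower. At an unadjusted p of 0.05, 1 member was lower (ICAM1) and 0 higher, against 4.9% and 4.33% of all genes, and DESeq2 gave 0 members at that level and called 0, where it called 1.11% of all genes. The members' median log2 fold change was 0.00, as was that of all genes. All libraries lay below all isotype libraries for 2 members (ICAM1 and NFKBIA), against 8.26% of all genes, and above them for 1 (CXCL2), against 7.64%.

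ICAM1 had 43.7, 37.3 and 49.7 CPM with the isotype, 44.4, 32.4 and 23.0 CPM at 1.5 µg/ml, and 23.0, 25.7 and 29.5 CPM at 5 µg/ml. The 3 libraries at 5 µg/ml lay below all isotype libraries, and those at 1.5 µg/ml spread over both ranges. The log2 fold change was -0.73 at 5 µg/ml (SE 0.33, 95% interval -1.45 to -0.02, unadjusted p = 0.0452, adjusted p = 0.532) and -0.37 at 1.5 µg/ml (SE 0.32, adjusted p = 0.969). Only 10 to 46 counts per library lie behind these values.

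CXCL8 had 529, 493 and 575 CPM with the isotype, 371, 481 and 655 CPM at 1.5 µg/ml, and 583, 413 and 616 CPM at 5 µg/ml. The isotype libraries fell inside the range of both treated groups. The log2 fold change at 5 µg/ml was 0.01 (SE 0.21, adjusted p = 0.995), with a 95% interval of 0.737- to 1.38-fold. The estimate of 0.6 times the control with VT107 at 2.15 µM lies outside it, but the 95% interval of that estimate, 0.47- to 0.765-fold, overlaps it. CXCL2 had 23.2, 33.1 and 27.0 CPM with the isotype, 35.0, 35.9 and 39.7 CPM at 1.5 µg/ml, and 46.1, 33.8 and 38.4 CPM at 5 µg/ml. All treated libraries lay above all isotype libraries, by log2 fold changes of 0.49 at 5 µg/ml (SE 0.30, adjusted p = 0.656) and 0.40 at 1.5 µg/ml (SE 0.30, adjusted p = 0.96). Between 17 and 31 counts per library lie behind them.

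NFKBIA had 2018, 1885 and 1848 CPM with the isotype, 1882, 2009 and 1960.2 CPM at 1.5 µg/ml, and 1730.3, 1839 and 1769 CPM at 5 µg/ml. The 5 µg/ml libraries lay just below the isotype libraries (log2 fold change -0.11, SE 0.09, adjusted p = 0.772), with a 95% interval of 0.808- to 1.07-fold. CXCL1, at 99.8, 95.3 and 82.1 CPM with the isotype, had 86.1, 83.4 and 125 CPM at 1.5 µg/ml and 94.5, 114 and 118 CPM at 5 µg/ml. The groups overlapped (log2 fold change 0.24 at 5 µg/ml, SE 0.23, adjusted p = 0.79). RELB varied most within the isotype group, with 27.3, 109 and 71.3 CPM, and had 64.6, 55.6 and 50.1 CPM at 1.5 µg/ml and 36.9, 47.3 and 47.4 CPM at 5 µg/ml. The isotype libraries spanned both treated groups, while those at 5 µg/ml lay below those at 1.5 µg/ml. Against the isotype the log2 fold change at 5 µg/ml was -0.64 (SE 0.40, adjusted p = 0.662), and without isotype replicate 1 or 2 it was -1.02 or -0.18. For CCL20, TNFAIP3, BIRC3 and ZFP36 the log2 fold changes at 5 µg/ml were -0.01, 0.13, -0.29 and 0.01, with overlapping groups in each.

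At 1.5 µg/ml against the isotype edgeR called 0 members and 0% of all genes in either direction. At an unadjusted p of 0.05 there were 0 members, by edgeR and by DESeq2, against 2.4% of all genes higher and 3.07% lower with edgeR. All libraries lay above the isotype for 1 member (CXCL2), against 5.62% of all genes, and below it for 1 (ZFP36), against 6.72%. ZFP36 had 213, 246 and 218 CPM with the isotype, 199, 183 and 173 CPM at 1.5 µg/ml, and 253, 235 and 197 CPM at 5 µg/ml. The 1.5 µg/ml libraries lay below the isotype, and those at 5 µg/ml overlapped both other groups (log2 fold change at 1.5 µg/ml -0.28, SE 0.17, adjusted p = 0.946). Between 5 and 1.5 µg/ml, edgeR called 0 members, where 0% of all genes were called higher and 0.0111% lower. Both edgeR and DESeq2 gave 0 members at an unadjusted p of 0.05, against 2.69% of all genes higher and 2.95% lower with edgeR. All libraries at 5 µg/ml lay below all at 1.5 µg/ml for 3 members (NFKBIA, BIRC3 and RELB), against 5.34% of all genes, and above them for 0, against 5.42%. The comparisons of intetumumab share their isotype libraries.

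Whether the agents differed at their higher doses, each set against its own control, was asked of a single model holding the 15 labelled libraries. EdgeR called 0 members, where 0.0391% of 10227 genes were called in each direction, and DESeq2 called 0 members and 1.02% of all genes. With no adjustment, 1 member had a p under 0.05 and a negative difference (CXCL8) and 0 a positive one, against 4.18% and 4.89% of all genes, and DESeq2 gave 1. For CXCL8 the effect of VT107 minus that of intetumumab was -0.75 on the log2 scale (SE 0.29, 95% interval -1.37 to -0.12, unadjusted p = 0.0217, adjusted p = 0.436). For CCL20 it was -0.63 (SE 0.36, adjusted p = 0.64). For ICAM1, with negative estimates for both agents, the difference was 0.04 (95% interval -0.88 to 0.95). NFKBIA had the narrowest interval, -0.20 to 0.37 around 0.09.

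**Figure D4:**
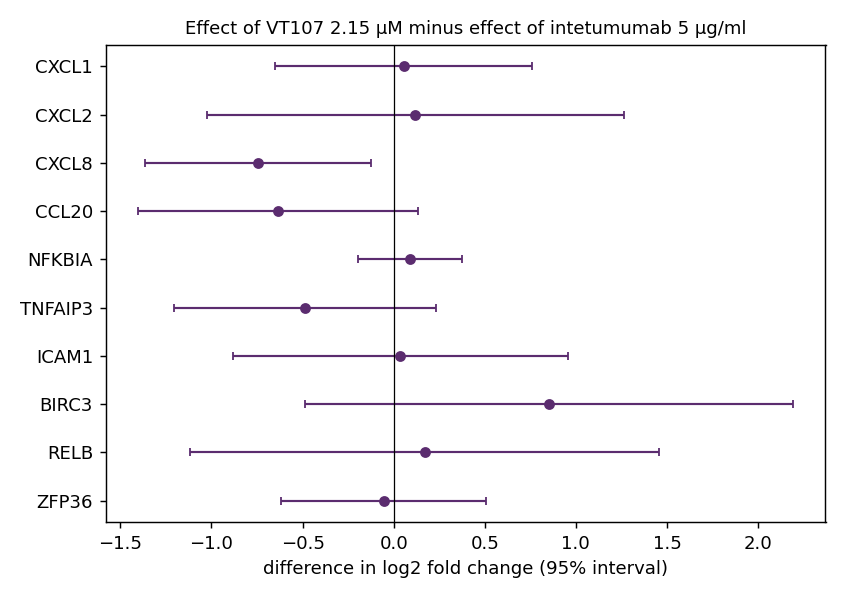
Difference in log2 fold change between VT107 at 2.15 µM (against DMSO) and intetumumab at 5 µg/ml (against the isotype) for the 10 genes, with points at the estimate and bars for the 95% interval, where values below 0 mean a lower value with VT107. The bar of CXCL8 lies below 0, from -1.37 to -0.12, and those of the other 9 genes cross 0.

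The unlabelled libraries give the conversions that arise without thiouridine. In the VT107 experiment NFKBIA had 20 counts there (exact Poisson interval 12.2 to 30.9), CXCL8 had 8 (3.45 to 15.8), TNFAIP3 had 2, CXCL1 had 1, and the other 6 genes had 0. In the intetumumab experiment NFKBIA had 5, CXCL8 had 2 and the other 8 genes had 0. These libraries held only 10702 and 4553 counts in all. Per total count, NFKBIA and CXCL8 stood at 39.2% and 48.9% of the labelled mean in the VT107 experiment and at 59.2% and 85% in the intetumumab experiment. As raw counts they were 0.374% and 0.49% of the labelled mean in the VT107 experiment and 0.371% and 0.542% in the intetumumab experiment. The totals are themselves counts of reads taken as new RNA. Values per total count therefore compare shares within each library and do not measure how much of the labelled counts is background. Raw counts would measure it only if the libraries were sequenced to a like depth, which was not analysed here. As a one-sided limit, a count of 0 allows up to 3 counts. As a raw count this is 8.61% of the labelled mean for BIRC3 in the VT107 experiment and 12.4% for CXCL2 in the intetumumab experiment. Per total count, the exact Poisson interval of a count of 0 reached 345 CPM, without TMM scaling, in the VT107 experiment. The highest labelled library of BIRC3 there had 55.8 CPM on the same scale. In the intetumumab experiment the interval reached 810 CPM, against 45.9 CPM in the highest labelled library of CXCL2. These limits follow from the small totals of 10702 and 4553 counts, whatever the background of a gene. On that scale a count of 0 therefore says nothing about the background of these genes.

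The 2 genes outside the set whose pattern lay closest to the mean pattern of the 10 members were ENSG00000150687 and ENSG00000109790. Their root mean square distances to it were 0.106 and 0.118 on the log2 scale, over 15 labelled libraries and 10227 genes, after each experiment was centred on its mean. The mean pattern itself only ranged between -0.29 and 0.23. Among the members the distance was smallest for NFKBIA, at 0.127, and greatest for RELB, at 0.434. Of all genes, 42.5% lay closer than RELB, 35.4% closer than BIRC3, 33.8% closer than CXCL2 and 24.3% closer than ICAM1. For the other members this share ran from 0.0489% (NFKBIA) to 7.46% (CXCL8). The members make up the mean pattern, so their own distances to it are not independent of it.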

How the data were processed

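The authors deposited 1 table of whole-number counts, per gene and library, of reads that SLAM DUNK took as new RNA (pipeline named in the series design text). The submitters' processing notes name GRCh38. How many conversions a read needed, software versions, the annotation and the treatment of multi-mapping reads are not given here. A QuantSeq kit, per the labels' protocols, reads transcripts at the 3′ end. Labelled libraries held 435343 to 1778876 counts.

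Samples were grouped from their titles. Both experiments had separate fits of all their labelled libraries (edgeR 4.0.16 in R 4.3.3, filterByExpr with a minimum count of 10, TMM, quasi-likelihood F-test, two-sided), and the difference between agents in 1 fit of all 15. P-values were adjusted over all tested genes by the Benjamini-Hochberg method. Standard errors are the log2 fold change over the square root of F, and 95% intervals use the fit's degrees of freedom. Alternatives were RLE and total count scaling, DESeq2 1.42.0, no filter, the replicate number as a block, counts divided by their common divisor, a joint fit and leaving out each library.

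The 10 genes and the lists were chosen with earlier results of these data known. By the naming rule, all 10 members were described, together with the 2 other genes nearest to their mean pattern, with symbols paired with Ensembl IDs by the rule that defines the set. For the lists of other NF-kB pathway genes and of cell type markers, 0 Ensembl IDs were in the name table (GRCh38.p14), so these lists were not analysed here.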

Additional observations from a re-analysis of the deposited data

Results flagged for a closer look

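Counts without thiouridine lay outside the main measurement and exceeded the 3 counts that a count of 0 allows, as a one-sided limit, for 2 members. CXCL8 had 8 counts and NFKBIA had 20 in the unlabelled library of the VT107 experiment, and NFKBIA had 5 in that of the intetumumab experiment. With 1 unlabelled library per experiment these values have no replicate check, and their cause was not tested.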

How the results depend on the processing

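EdgeR called 0 members in the 7 comparisons, and 0 were called under all alternatives run except 3. The count was 1, CXCL8, with DESeq2 and with no filter on low counts at VT107 2.15 µM against DMSO, and 1, again CXCL8, with DESeq2 against 0.1 µM. Over all genes those fits called 245, 199 and 7 genes, against 11, 11 and 0 in the filtered edgeR fit. Members to which DESeq2 gave no adjusted p could not be called by it. These included BIRC3 at VT107 0.1 and 2.15 µM against DMSO. At intetumumab 1.5 µg/ml against the isotype they included CXCL1, CXCL2, CCL20, ICAM1, BIRC3 and RELB. DESeq2 called 183 genes against edgeR's 0 at VT107 0.1 µM, 35 against 0 at intetumumab 1.5 µg/ml, 100 against 8 at 5 µg/ml, 4 against 1 between the intetumumab doses and 104 against 8 for the difference between agents. The cause was not tested.

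The correlations gave no sign that replicate numbers pair the libraries, but cannot exclude it. After removal of group means, same-numbered libraries ran from -0.0152 to 0.00635 in the VT107 experiment and from -0.0238 to 0.0653 in the intetumumab experiment. Different-numbered libraries ran from -0.00635 to 0.0152 and from -0.0865 to 0.0932. In the same order, 0 of 6 and 2 of 9 libraries correlated best with their own number. With 2 libraries per group, deviations in the VT107 experiment mirror each other, so its same- and different-numbered values differ only in sign. With the replicate block 0 members were called, and the calls over all genes were 5 against 11 without the block at VT107 2.15 µM, 1 against 8 at intetumumab 5 µg/ml, 0 against 1 between the intetumumab doses and 4 against 8 for the difference between agents. The block turned the sign of RELB between the VT107 doses (0.0045), CXCL8 at intetumumab 5 µg/ml (-0.0021) and TNFAIP3 between the intetumumab doses (-0.0070).

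Total count scaling turned NFKBIA (0.13) and ZFP36 (0.11) at VT107 2.15 µM, CCL20 at intetumumab 5 µg/ml (0.033) and ZFP36 in the difference between agents (0.059). It moved the median of all genes by 0.11 at VT107 0.1 µM, 0.16 at 2.15 µM and 0.11 in the difference. ICAM1 in the difference was at -0.00019 with RLE size factors and -0.0042 with DESeq2. The counts of the unlabelled libraries, as a percent of the labelled mean, were 0.374 for NFKBIA and 0.49 for CXCL8 on raw counts in the VT107 experiment, and 0.371 and 0.542 in the intetumumab experiment, against 39.2, 48.9, 59.2 and 85 per total count. The values per total count compare shares within each library and do not measure the background.

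Leaving out each library in turn changed the sign of these log2 fold changes, given as the lowest and highest. At VT107 0.1 µM they were TNFAIP3 (-0.44 and 0.17), CXCL8 (-0.12 and 0.14), ICAM1 (-0.32 and 0.067) and RELB (-1.03 and 0.0072). At 2.15 µM they were NFKBIA (-0.082 and 0.042), ZFP36 (-0.11 and 0.023), BIRC3 (-0.084 and 1.70) and CXCL1 (-0.085 and 0.61). Between the VT107 doses they were RELB (-0.48 and 0.56), BIRC3 (-0.80 and 0.043) and CXCL1 (-0.49 and 0.21). At intetumumab 1.5 µg/ml they were RELB (-0.66 and 0.18), CXCL1 (-0.12 and 0.18) and CXCL8 (-0.32 and 0.085). At 5 µg/ml they were CCL20 (-0.22 and 0.11), CXCL8 (-0.11 and 0.17), ZFP36 (-0.061 and 0.11) and TNFAIP3 (-0.016 and 0.32). Between the intetumumab doses they were TNFAIP3 (-0.13 and 0.21), CXCL8 (-0.075 and 0.33), CXCL2 (-0.022 and 0.19) and CCL20 (-0.060 and 0.26). In the difference between agents they were ICAM1 (-0.15 and 0.22), ZFP36 (-0.14 and 0.021), CXCL1 (-0.33 and 0.37), CXCL2 (-0.45 and 0.99) and RELB (-0.29 and 0.53). With 1 library left in a group, it was assumed to vary like the others. Counts per labelled library were as low as 10 for BIRC3 and ICAM1, 16 for RELB and 17 for CXCL2.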

Other observations

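The controls of the experiments were set on 1 TMM scale over all 15 labelled libraries. CXCL1 averaged 433 ± 62.9 CPM in DMSO (SD, n = 2) and 90.8 ± 8.46 CPM with the isotype (SD, n = 3), a ratio of 4.78. CXCL8 averaged 1814 ± 257 and 524 ± 44.4 CPM in the same groups, a ratio of 3.46. The ratio exceeded 2 for 6 of the 10 members (CXCL1, CXCL8, CCL20, NFKBIA, TNFAIP3 and ICAM1), against 14.2% of 10227 genes. CXCL2, a close copy of CXCL1, was at 30.9 ± 20.3 and 27.3 ± 4.86 CPM. The ratio was below 1 for 2 members, BIRC3 (0.547) and ZFP36 (0.654, from 145 ± 10.3 and 222 ± 16.6 CPM). Control and experiment cannot be told apart here, so no test was made.

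Even counts were common in 2 further members: ZFP36 had an even count in 14 of the 15 labelled libraries and TNFAIP3 in 13, while the other members except CCL20 had 5 to 10. The cause was not tested.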
